A study of Arabidopsis thaliana with 9 samples.

Results

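The 10 genes described here encode xyloglucan endotransglucosylase/hydrolases (XTH), enzymes that remodel the plant cell wall. They were taken by locus from a table of read counts for 27206 Arabidopsis thaliana genes, and all 10 were present and passed the filter on low counts. They are XTH22 (also named TCH4), XTH31, XTH24, XTH23, XTH33, XTH32, XTH4, XTH15, XTH18 and XTH30, which leaves 23 other genes of the 33-member family. The list was drawn up with earlier results of these data known, so the share of its genes that changed is a description of these genes and not evidence about the family.

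Leaves of wild-type Col-0, the reference accession of the species, were wounded and sampled over the first hour. The 9 libraries of polyadenylated RNA comprised 3 from before wounding, 3 from 30 min and 3 from 60 min after it, which the study calls biological replicates. The labels name no unwounded leaves harvested beside the later times and give no hour of harvest, and the effects of wounding and of time of day cannot be told apart. Plants grew on soil in short days. Neither the number of plants behind a sample nor the way of wounding is given, so p-values measure only the spread between these samples. Total counts were 14300929 in replicate 1 at 30 min and 22072126 to 22970735 in the other 8 libraries. As a check of the leaf label, 5 photosynthesis genes summed to between 148600 and 182100 CPM (counts scaled to library size) before wounding, between 123900 and 156400 CPM after 30 min and between 110700 and 140900 CPM after 60 min. No seed gene of 3 had a count in any library, and 3 flower genes summed to at most 1.21 CPM. Of 5 root genes 2 had no count, and the root sum, mostly PYK10, ranged over 11.7 to 28.6 CPM before wounding, over 6.77 to 14.4 CPM after 30 min and over 7.35 to 12.2 CPM after 60 min. What these sums contribute to the results was not tested. In whole leaves, fewer cells of a type and less RNA per cell cannot be told apart.

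Xyloglucan is a polysaccharide that coats and tethers cellulose in the primary wall. An XTH enzyme cuts a xyloglucan chain and either joins the new end to another chain, which keeps the wall continuous while it extends, or releases it to water. Different family members are used in growing cells, in veins, in roots and after mechanical stimuli. XTH22 is the textbook case of a plant gene switched on by touch.

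All 10 members share the short stretch that holds the catalytic residues, and it is shown for that reason. The lines below give 27 bases of coding sequence from 5′ to 3′, read from TAIR10.1 with its RefSeq annotation, with the codons for glutamate, aspartate and glutamate in capitals. The first glutamate is the nucleophile and the last is the acid/base residue.
XTH18 (chr4:14826569-14826595, minus strand): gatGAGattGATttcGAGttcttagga
XTH15 (chr4:8137782-8137808, minus strand): gacGAGataGACtttGAGtttctaggt
XTH24 (chr4:14820042-14820068, minus strand): gatGAGattGATtttGAGttcttgggt
XTH23 (chr4:13129072-13129098, plus strand): gacGAGattGACtttGAGttcttggga
XTH4 (chr2:2764493-2764519, plus strand): gacGAGataGACtttGAGttccttgga
XTH22 (chr5:23307839-23307865, minus strand): gacGAGataGATttcGAGtttttaggg
XTH31 (chr3:16447882-16447908, minus strand): gatGAGgtcGATatcGAGtttctaggg
XTH32 (chr2:15474073-15474099, minus strand): gatGAGgtaGACataGAAtttttgggg
XTH33 (chr1:3480306-3480332, minus strand): gacGAGataGACataGAAttgttgggt
XTH30 (chr1:11576260-11576286, plus strand): gacGAGttaGACataGAGtttctaggg
The stretch lay in a single exon in each of the 10 genes and differed from that of XTH22 at 4 to 7 bases in the other 9. Coding identity between pairs of members ran from 60.3% to 82.4%, with a median of 65.2% over 45 pairs and the highest value for XTH22 and XTH23. As a measure of how far reads can be told apart, every 50-base stretch of exon in 9 members occurred at 1 place in the genome, and 98.3% of those of XTH18 did.

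By 30 min, 7 of the 10 genes had changed. XTH18, XTH15, XTH23, XTH24 and XTH4 were higher than before wounding, and XTH31 and XTH32 were lower. Among all 17622 genes tested, 28% were called in either direction (edgeR quasi-likelihood F test with adjusted p under 0.05), 14.5% higher and 13.4% lower. At 60 min the same 5 genes were higher and XTH22 had joined XTH31 and XTH32 among the lower ones, against 32.4% of all genes called, 17.1% higher and 15.3% lower. Between 30 and 60 min XTH22 alone of the 10 was called, lower at 60 min, where 2.02% of all genes were called, 0.721% higher and 1.3% lower. With library size alone in place of TMM scaling, 70.9% of all calls at 60 min were higher, against 52.9% with TMM, and no member changed direction. That scaling called all 10 members at 60 min, against 8 with TMM, beside 5931 and 5704 of all genes. The median log2 change of the members was 1.18 at 30 min and 0.82 at 60 min, beside 0.02 and 0.06 over all tested genes, and it summarises genes that moved in opposite directions. Both comparisons with leaves from before wounding use the same 3 libraries. Counting instead the genes whose libraries did not overlap between the groups, 9 members stood apart at 30 min, 7 higher and 2 lower, where 43.4% of all genes did, 21.8% higher and 21.5% lower. At 60 min 7 members stood apart, 4 higher and 3 lower, where 47.3% of all genes did, 24.8% higher and 22.5% lower. Between 30 and 60 min 6 stood apart, 2 higher and 4 lower at 60 min, where 16.2% of all genes did, 8.18% higher and 8.03% lower.

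**Figure D1:**
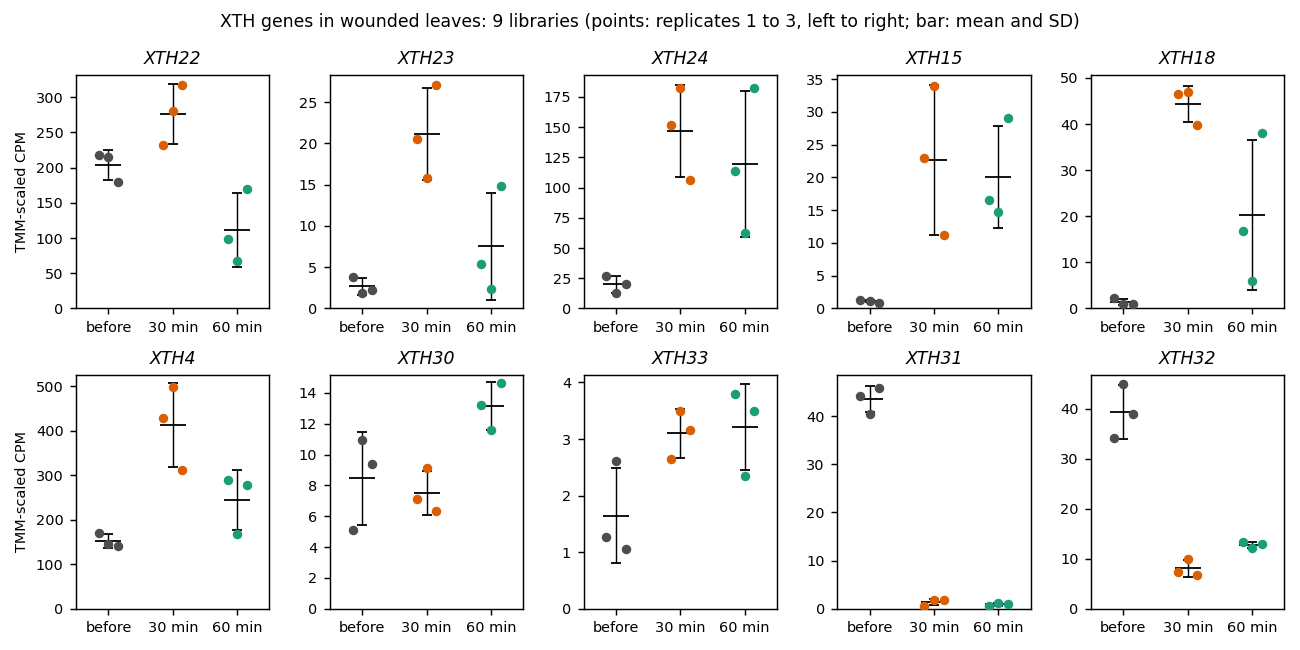
CPM after scaling by TMM (y axis, linear, from 0) of the 10 XTH genes in the 9 libraries (x axis, time after wounding); points are replicates 1 to 3 from left to right and black bars are the mean and SD. XTH31 stood at 40.6 to 45.9 CPM before wounding and under 2 CPM in all 6 later libraries, while XTH18 stood at 0.954 to 2.24 CPM before wounding and at 39.7 to 46.9 CPM at 30 min.

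XTH18 (AT4G30280, chr4:14825757-14827211, minus strand, 3 exons) belongs to a group of closely related XTH genes known mainly from roots. Its level was 2.24, 0.967 and 0.954 CPM in replicates 1 to 3 before wounding, 46.4, 46.9 and 39.7 CPM at 30 min, and 16.9, 5.87 and 38.0 CPM at 60 min. The groups from 30 and 60 min each lay wholly above that from before wounding, and the 3 libraries at 60 min were far apart. The log2 change was 4.98 at 30 min (SE 0.57, edgeR adjusted p 2.93e-05) and 3.84 at 60 min (SE 0.56, edgeR adjusted p 0.000171). Between 30 and 60 min the log2 change was -1.13 (SE 0.46, edgeR adjusted p 0.302). With single libraries left out that change of XTH18 ran from -1.97 (without replicate 3 of 60 min, edgeR adjusted p 0.0157) to -0.69 (without replicate 2 of 60 min), and its adjusted p reached 0.577 without replicate 1 of 60 min.

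XTH15 (AT4G14130, chr4:8137020-8138392, minus strand, 3 exons), known as a gene raised by shade, counted 1.27, 1.21 and 0.903 CPM before wounding, 22.9, 33.9 and 11.2 CPM after 30 min, and 16.5, 14.7 and 29.0 CPM after 60 min. Each later library was above all 3 from before wounding, while the groups from 30 and 60 min overlapped. The log2 change was 4.31 at 30 min (SE 0.42, edgeR adjusted p 7.36e-06) and 4.14 at 60 min (SE 0.42, edgeR adjusted p 9.01e-06). From 30 to 60 min the log2 change was -0.17 (SE 0.34, edgeR adjusted p 0.904). XTH15 overlaps AT4G14120 on the opposite strand by 382 exon bases, and the use of strand in counting is not given in the sources used here. AT4G14120 itself averaged 0.704, 0.284 and 0.619 CPM at the 3 times.

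XTH24 (AT4G30270, chr4:14819192-14820595, minus strand, 3 exons), also named MERI5, lies next to XTH18, with 5161 bases and no other coding gene between them. It had 27.1, 12.6 and 19.9 CPM before wounding, 151.5, 182 and 106 CPM at 30 min, and 113, 62.8 and 182 CPM at 60 min. All 6 later libraries were above the 3 from before wounding. The log2 change of XTH24 was 2.88 at 30 min (SE 0.36, edgeR adjusted p 6.16e-05) and 2.59 at 60 min (SE 0.36, edgeR adjusted p 0.00012). Between the later times XTH24 gave a log2 change of -0.29 (SE 0.33, edgeR adjusted p 0.812).

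XTH23 (AT4G25810, chr4:13128394-13129927, plus strand, 3 exons), also called XTR6, is the gene closest to XTH22 in coding sequence. Its values were 3.86, 1.93 and 2.26 CPM before wounding, 20.5, 15.9 and 27.1 CPM at 30 min, and 5.39, 2.31 and 14.8 CPM at 60 min. The 30 min libraries all lay above the other 6, and the 60 min group overlapped that from before wounding. The log2 change was 2.97 at 30 min (SE 0.52, edgeR adjusted p 0.000822). At 60 min XTH23 gave a log2 change of 1.47 (SE 0.51, edgeR adjusted p 0.0422), a call that rests on single libraries. Without replicate 3 of 60 min it was 0.49 with an edgeR adjusted p of 0.374, and the call was also lost without replicate 2 (0.145) or replicate 3 (0.131) of before wounding or replicate 1 of 30 min (0.0619), with DESeq2 (adjusted p 0.0762), and with only the 2 groups compared (0.056). The direct comparison of 60 with 30 min gave -1.50 (SE 0.48, edgeR adjusted p 0.159), and -2.48 with an edgeR adjusted p of 0.00424 without replicate 3 of 60 min, while the adjusted p reached 0.436 without replicate 1 of 60 min.

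XTH4 (AT2G06850, chr2:2763449-2765743, plus strand, 4 exons), the endoxyloglucan transferase EXGT-A1, was abundant at all times. It stood at 170.2, 145 and 142 CPM before wounding, 429.5, 498 and 311 CPM at 30 min, and 289, 167 and 278 CPM at 60 min. At 30 min the 3 libraries were above all others, and at 60 min replicate 2 fell within the range from before wounding. The log2 change was 1.44 at 30 min (SE 0.22, edgeR adjusted p 0.00027) and 0.68 at 60 min (SE 0.21, edgeR adjusted p 0.0255). The 60 min call of XTH4 was lost without replicate 2 (adjusted p 0.106) or replicate 3 (0.11) of before wounding and without replicate 1 (0.107) or replicate 3 (0.1) of 60 min in the edgeR fit. From 30 to 60 min XTH4 gave -0.75 (SE 0.21, edgeR adjusted p 0.101), which was called with DESeq2 (adjusted p 0.0262) and without replicate 3 of 30 min (edgeR adjusted p 0.045). The edgeR adjusted p of that change reached 0.296 without replicate 2 of 30 min.

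At 60 min the libraries differed in the same order for several of these genes. Replicate 3 was the highest and replicate 2 the lowest for XTH18, XTH15, XTH24, XTH23 and XTH22. Raw counts of XTH18 were 392, 155 and 858 in replicates 1 to 3 at nearly equal depth, and the TMM factors were 1.04, 1.2 and 1.00. What set these 3 libraries apart was not tested.

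XTH31 (AT3G44990, chr3:16446935-16448844, minus strand, 4 exons) and XTH32 (AT2G36870, chr2:15472607-15474828, minus strand, 4 exons) form the branch of the family in which hydrolysis of xyloglucan is the known activity of XTH31. They are each other's closest relative in coding sequence, at 68.6% identity. XTH31 had 44.2, 40.6 and 45.9 CPM before wounding, 0.627, 1.75 and 1.89 CPM at 30 min, and 0.56, 1.25 and 0.974 CPM at 60 min. All 6 later libraries lay far below the 3 from before wounding, and those of 30 and 60 min overlapped. The change was 29.3-fold lower at 30 min and 46.3-fold lower at 60 min, with log2 SEs of 0.31 and 0.32 and edgeR adjusted p-values of 1.96e-07 and 1.04e-07. It rested on 9 to 46 counts per later library, above the floor of 3 counts used here as the limit of detection. From 30 to 60 min the log2 change of XTH31 was -0.66 (SE 0.35, edgeR adjusted p 0.491).

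XTH32 had 34.2, 44.8 and 38.9 CPM before wounding, 7.38, 9.95 and 6.81 CPM at 30 min, and 13.4, 12.1 and 12.8 CPM at 60 min. The 3 groups did not overlap, and the 60 min libraries lay between the others. XTH32 changed by a log2 of -2.29 at 30 min (SE 0.18, edgeR adjusted p 1.34e-06) and -1.62 at 60 min (SE 0.18, edgeR adjusted p 1.67e-05). From 30 to 60 min the log2 change of XTH32 was 0.67, which did not pass the threshold (SE 0.18, edgeR adjusted p 0.0831). It was called with DESeq2 (adjusted p 0.0399), with library size alone as scaling (edgeR adjusted p 0.0354) and without replicate 2 of 30 min (edgeR adjusted p 0.0435). The edgeR adjusted p of that change reached 0.277 without replicate 1 of 30 min.

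**Figure D2:**
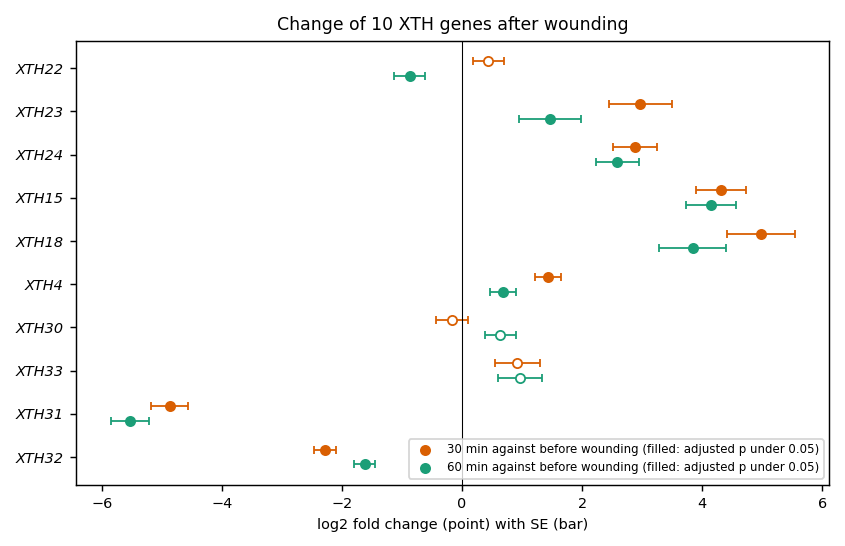
Log2 fold change (x axis) of the 10 XTH genes (y axis) at 30 min and at 60 min, each against before wounding; bars are SEs, filled points have an adjusted p under 0.05 and open points do not. XTH18 and XTH15 lie farthest to the right, at 4.98 and 4.31 at 30 min, and XTH31 farthest to the left, at -4.87 and -5.53.

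XTH22 (AT5G57560, chr5:23307006-23308680, minus strand, 2 exons), the touch gene TCH4, was already high before wounding. It stood at 218, 215 and 179 CPM before wounding, 231.5, 281 and 317 CPM at 30 min, and 98.9, 66.8 and 169 CPM at 60 min. The 30 min libraries were above and the 60 min libraries below the range from before wounding, in all 3 replicates of each. The log2 change of XTH22 at 30 min, 0.44, was not called (SE 0.26, edgeR adjusted p 0.228), although it was when only the 2 groups were fitted (edgeR adjusted p 0.0497). The 60 min level was lower than before wounding by a log2 change of -0.87 (SE 0.26, edgeR adjusted p 0.0201) and lower than at 30 min by a log2 change of -1.31 (SE 0.26, edgeR adjusted p 0.0185). In the first of these the edgeR call was lost without replicate 1 (adjusted p 0.057) or 2 (0.0664) of before wounding or replicate 1 of 60 min (0.0761), while without replicate 3 of 60 min the change was -1.32 (0.000548). In the second it was lost without replicate 1 of 60 min (edgeR adjusted p 0.118) and with only the 2 groups fitted (0.0569).

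XTH33 and XTH30 did not pass the threshold in any comparison. XTH33 (AT1G10550, chr1:3479066-3481041, minus strand, 4 exons), unusual in the family for being held at the plasma membrane, had 1.27, 2.61 and 1.05 CPM before wounding, 2.65, 3.49 and 3.16 CPM at 30 min, and 3.79, 2.35 and 3.50 CPM at 60 min. The 30 min libraries were all above those from before wounding by a narrow margin, and the 60 min libraries overlapped them. XTH33 gave a log2 change of 0.92 at 30 min (SE 0.37, edgeR adjusted p 0.0852) and of 0.96 at 60 min (SE 0.37, edgeR adjusted p 0.0624). Replicate 2 of before wounding bears on this gene: without it the changes were 1.40 (edgeR adjusted p 0.022) and 1.45 (0.0166), while without replicate 3 of before wounding the adjusted p-values were 0.275 and 0.222. XTH33 was also called at 60 min without replicate 2 of 60 min (edgeR adjusted p 0.0387), with DESeq2 (0.0489) and with library size alone (0.0271).

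XTH30 (AT1G32170, chr1:11575320-11578030, plus strand, 4 exons), closest to XTH29 at 72.3% coding identity, had 5.09, 10.9 and 9.38 CPM before wounding, 7.10, 9.13 and 6.32 CPM at 30 min, and 13.2, 11.6 and 14.7 CPM at 60 min. The first 2 groups overlapped, and the 60 min libraries were the highest of the 9. The log2 changes of XTH30 were -0.17 at 30 min (SE 0.26, edgeR adjusted p 0.678), 0.64 at 60 min (SE 0.26, edgeR adjusted p 0.0729) and 0.81 from 30 to 60 min (SE 0.26, edgeR adjusted p 0.159). Without replicate 2 of before wounding the 30 min change was 0.05 (edgeR adjusted p 0.928) and the 60 min change was called (0.0471). Without replicate 1 of before wounding the 60 min change was 0.37 (edgeR adjusted p 0.233). With library size alone the 60 min change was also called (edgeR adjusted p 0.0149).

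Levels of different genes can be set side by side only per length, here as CPM per kb of annotated exon. Among the 10 genes XTH22 led before wounding with 128 ± 13.7 CPM per kb, followed by XTH4 with 94.3 ± 9.69 and XTH31 with 31.3 ± 1.97 (SD, n = 3). XTH32 (20.5 ± 2.78) and XTH24 (16.4 ± 6.01) came next and overlapped each other, XTH30 stood at 6.05 ± 2.16, and XTH23, XTH33, XTH18 and XTH15 lay between 0.934 and 1.96, each overlapping its neighbour. At 30 min the order began with XTH4 (256 ± 58.6), XTH22 (174 ± 26.9) and XTH24 (121 ± 31.6), each overlapping the next, and XTH31 was last at 1.02 ± 0.496 CPM per kb. At 60 min XTH4 (151.6 ± 41.7), XTH24 (98.8 ± 49.6) and XTH22 (70.2 ± 33.0) overlapped in the same way, and XTH31 was again last at 0.666 ± 0.249. XTH18, among the 4 lowest before wounding, stood next after those 3 at 30 min with 35.1 ± 3.17 CPM per kb, clear of its neighbours in the order.

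Summed over the whole family of 33 genes, the level was 658 ± 27.6 CPM per kb before wounding, 999 ± 148 at 30 min and 755 ± 190 at 60 min (SD, n = 3). The 30 min libraries, at 883.5 to 1166, were above those from before wounding, at 639 to 689.6, and the 60 min libraries, at 559 to 938, overlapped both. The 10 genes supplied 46.0 ± 3.84% of that sum before wounding, 63.4 ± 1.64% at 30 min and 49.0 ± 6.69% at 60 min. XTH24 made up 2.52%, 12.02% and 12.5% of the family sum at the 3 times, XTH22 19.5%, 17.7% and 8.99%, and XTH31 4.77%, 0.103% and 0.0958%. These sums describe the mixture of transcripts and were not tested.

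**Figure D3:**
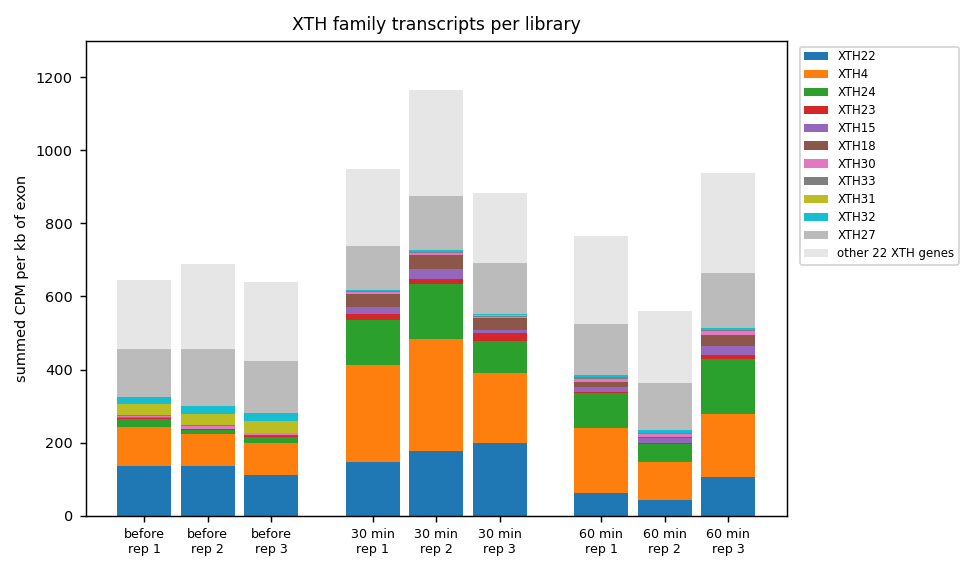
CPM per kb of exon (y axis, linear, from 0) summed over the 33 XTH genes in each of the 9 libraries (x axis); colours are the 10 genes described, dark grey is XTH27 and pale grey the other 22. The 3 libraries at 30 min reach 883.5 to 1166 against 639 to 689.6 before wounding, with wider bands for XTH4 and XTH24.

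Of the 23 other XTH genes, 12 passed the filter, 8 had no count in any library and 3 had too few counts to test. At 30 min 4 of the 12 were higher and 2 lower, and at 60 min again 4 higher and 2 lower, beside the shares of all genes given above. Between 30 and 60 min 0 of the 12 were called by edgeR, where 2.02% of all genes were. DESeq2 called 2 of the 12, beside 702 of all genes, and 4 had an unadjusted edgeR p under 0.05. The share of all genes under that unadjusted p was not counted, here or for the lists below. XTH25 changed most among the risers, with 1.34 ± 0.326 CPM before wounding, 12.9 ± 5.06 after 30 min and 12.8 ± 4.07 after 60 min (SD, n = 3). That is a log2 change of 3.28 at 30 min (SE 0.36, edgeR adjusted p 1.78e-05) and of 3.25 at 60 min (SE 0.35, edgeR adjusted p 1.71e-05). XTH16 rose by a log2 of 1.57 at 30 min and 1.50 at 60 min (edgeR adjusted p 0.00054 and 0.000662), and XTH7 fell by 0.81 and 1.13 on the log2 scale (edgeR adjusted p 0.00815 and 0.000798). XTH19, which in Arabidopsis has a known part in the rejoining of cut stem tissue, rose by a log2 of 1.72 at 30 min (SE 0.43, edgeR adjusted p 0.00874). At 60 min XTH19 was not called (log2 change 0.66, edgeR adjusted p 0.271). Its level was low, at 0.968 ± 0.543, 3.195 ± 0.511 and 1.53 ± 0.517 CPM at the 3 times (SD, n = 3).

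The smaller changes in the rest of the family were less secure. XTH6 was called higher at 30 min (log2 change 0.67, edgeR adjusted p 0.0433) and at 60 min (0.70, edgeR adjusted p 0.0307), and these calls were lost in 6 and 5 of 9 fits without 1 library, with adjusted p up to 0.217 (without replicate 2 of 30 min) and 0.157 (without replicate 3 of 60 min). XTH9 was called higher at 60 min (0.62, edgeR adjusted p 0.0386), a call lost in 6 of 9 such fits with adjusted p up to 0.165 without replicate 3 of before wounding. XTH17 was called lower at 60 min (-1.88, edgeR adjusted p 0.0366), a call lost in 5 of 9, with adjusted p up to 0.102 without replicate 1 of before wounding. XTH28 was called lower at 30 min (-0.57, edgeR adjusted p 0.0105), a call lost without replicate 3 of before wounding (0.0552) or replicate 1 of 30 min (0.053). XTH27, a vein-associated member and the other abundant one, averaged 222 ± 17.9, 208 ± 22.8 and 214 ± 16.0 CPM at the 3 times (SD, n = 3) and was not called.

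**Figure D4:**
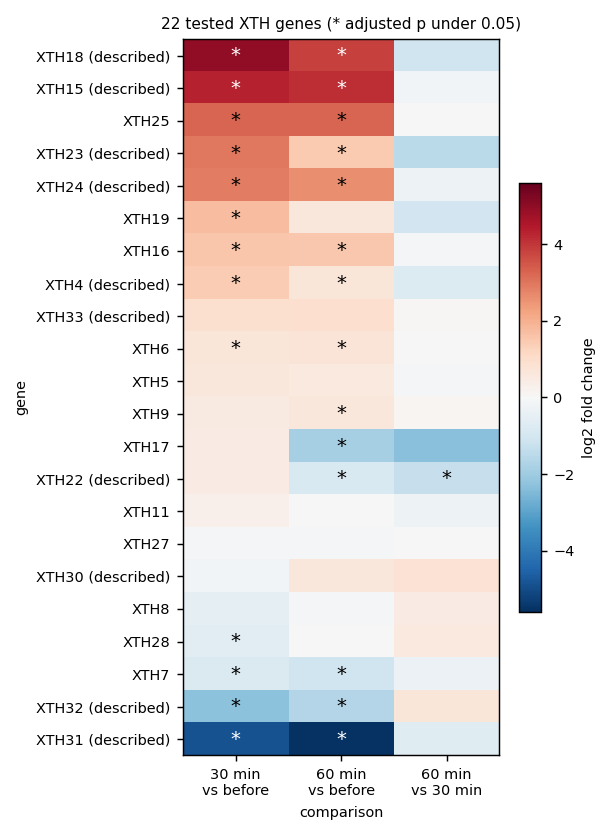
Log2 fold change (colour) of the 22 XTH genes tested (rows, ordered by the change at 30 min) in the 3 comparisons (columns); an asterisk marks an adjusted p under 0.05, and the 10 genes described in detail are named as such. Genes that rose head the rows, with XTH18 first at 4.98 at 30 min, and XTH31 closes them at -4.87, and 1 asterisk stands in the column of 60 min against 30 min, for XTH22.

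Several members have an XTH gene next door, and their calls differed. On chromosome 4, XTH24, XTH18 and XTH19 lie in a row on the same strand, with 5161 and 1500 bases between them. At 30 min their log2 changes were 2.88, 4.98 and 1.72, all called, and at 60 min XTH19 was no longer called while the other 2 were. On chromosome 5, XTH25 and XTH22 are 565 bases apart, and XTH25 was 9.70-fold higher at 30 min and 9.54-fold higher at 60 min, where XTH22 was 1.83-fold lower. XTH14, 363 bases from XTH23, had no count in any library, nor did XTH13, 686 bases from XTH25, or XTH12, which lies beyond XTH13. Differences between neighbours were not tested as such.

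Close relatives in coding sequence can be set side by side in the same way. XTH15 and XTH16, 81.7% identical, both rose at both times, by log2 changes of 4.31 and 1.57 at 30 min. XTH18 and XTH17, 92.2% identical, had log2 changes of 3.84 and -1.88 at 60 min. XTH17 had only 1 to 14 counts in each library of 60 min.

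The 250 bases upstream of the annotated starts of XTH18 and XTH31, the members with the largest called rise and fall at 30 min, are shown so that the start of each gene can be seen beside its response. Capitals mark a match to CGCGTT, the core of a known rapid stress response element, on either strand.
XTH18 (chr4:14827212-14827461, minus strand): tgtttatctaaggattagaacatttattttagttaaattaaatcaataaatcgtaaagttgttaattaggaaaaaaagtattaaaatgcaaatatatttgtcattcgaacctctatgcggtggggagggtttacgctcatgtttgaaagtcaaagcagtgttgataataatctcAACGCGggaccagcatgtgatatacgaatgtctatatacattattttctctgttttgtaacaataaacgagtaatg
XTH31 (chr3:16448845-16449094, minus strand): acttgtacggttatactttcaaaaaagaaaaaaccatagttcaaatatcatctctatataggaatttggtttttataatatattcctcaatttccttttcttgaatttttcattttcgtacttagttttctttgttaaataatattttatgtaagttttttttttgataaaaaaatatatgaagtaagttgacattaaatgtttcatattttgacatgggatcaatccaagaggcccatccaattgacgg
As a description, 3 words were searched in these windows on both strands: CGCGTT, the G-box CACGTG and the evening element AAAATATCT. CGCGTT occurred in 1 of the 10 members, XTH18, starting 76 bases before the annotated start as AACGCG, and in 2.59% of the windows of 26709 protein-coding genes. CACGTG and AAAATATCT occurred in 0 of the 10 members and in 6.58% and 2.4% of all windows. None of the words contains another, and a window without one says nothing of the factors that act there.

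Genes that make xyloglucan were followed as a list of 15, all tested. At 30 min 5 were higher and 3 lower, where 14.5% of all genes were higher and 13.4% lower, and the median log2 change was 0.32 beside 0.02 over all genes. At 60 min 5 were higher and 1 lower, where 17.1% of all genes were higher and 15.3% lower, and the median was 0.27 beside 0.06. Between 30 and 60 min 0 were called by edgeR, where 2.02% of all genes were. DESeq2 called 1 of the 15, beside 702 of all genes, and 5 had an unadjusted edgeR p under 0.05. XXT5, a xylosyltransferase that adds side chains to the backbone, had 26.5 ± 2.1 CPM before wounding, 68.5 ± 13.6 after 30 min and 53.8 ± 19.99 after 60 min (SD, n = 3). XXT5 was thus higher by a log2 of 1.37 at 30 min (edgeR adjusted p 0.000721) and of 1.02 at 60 min (edgeR adjusted p 0.00462). The galactosyltransferases MUR3 and XLT2, which extend those side chains at different places, moved in opposite directions. MUR3 rose by a log2 of 0.89 at 30 min (edgeR adjusted p 0.00135) and 0.55 at 60 min (edgeR adjusted p 0.0217), the second call being lost in 5 of 9 fits without 1 library, with adjusted p up to 0.123 without replicate 3 of 60 min. XLT2 fell by 1.24 and 1.39 on the log2 scale (edgeR adjusted p 0.00112 and 0.000419).

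Of 5 genes for enzymes that trim xyloglucan side chains, 2 were higher and 0 lower in edgeR at each time, beside shares of higher calls over all genes of 14.5% at 30 min and 17.1% at 60 min, and 2 had an unadjusted p under 0.05. Between 30 and 60 min 0 of the 5 were called by edgeR or DESeq2, where edgeR called 2.02% of all genes, and 0 had an unadjusted p under 0.05. The list's median log2 change was -0.03 at 30 min and -0.02 at 60 min, beside 0.02 and 0.06 over all genes. AXY8, an alpha-fucosidase, had 45.1 ± 2.57 CPM before wounding, 114 ± 14.9 after 30 min and 124.5 ± 17.6 after 60 min (SD, n = 3), with log2 changes of 1.34 and 1.46 (edgeR adjusted p 2.35e-05 and 1.02e-05). BGAL10, a beta-galactosidase, rose by a log2 of 1.65 at 60 min (edgeR adjusted p 0.00586). Its call at 30 min (1.17, edgeR adjusted p 0.0402) was lost in 5 of 9 fits without 1 library, and without replicate 3 of 30 min the change was 0.57 with an adjusted p of 0.227.

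XTH22 was first described with 3 other touch-induced genes, TCH1, TCH2 and TCH3, which encode calmodulin and its relatives. TCH3 had 84.3 ± 32.2 CPM before wounding, 561 ± 104 after 30 min and 277 ± 108 after 60 min, and TCH1 had 25.1 ± 4.02, 50.8 ± 11.8 and 45.5 ± 15.7 CPM (SD, n = 3). Both were called higher at both times, with edgeR adjusted p-values of 2.04e-05 and 0.000561 for TCH3 and of 0.00728 and 0.0164 for TCH1. The 60 min call of TCH1 was lost without replicate 2 (adjusted p 0.0736) or replicate 3 (0.0817) of before wounding or replicate 3 of 60 min (0.0947) in the edgeR fit. TCH2, like XTH22, was not called at 30 min and was lower at 60 min, with 44.7 ± 8.18 CPM before wounding, 34.2 ± 4.26 after 30 min and 13.8 ± 6.26 after 60 min (log2 change at 60 min -1.70, edgeR adjusted p 0.000566). It was also lower at 60 than at 30 min (log2 change -1.32, edgeR adjusted p 0.0298), a call lost in 4 of 9 fits without 1 library, with adjusted p up to 0.0754 without replicate 1 of 30 min. The edgeR call was also lost with library size alone (adjusted p 0.0588), with the replicate block (0.0561) and with only the 2 groups fitted (0.077).

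The genes whose log2 CPM followed XTH22 most closely over the 9 libraries were AT1G27100, MAPKKK14 and SZF1, with Pearson r of 0.975, 0.969 and 0.967. SZF1, a zinc finger gene, had 45.3 ± 7.79 CPM before wounding, 54.6 ± 6.32 after 30 min and 21.1 ± 11.9 after 60 min (SD, n = 3). Those most like XTH31 were CYP96A12 (r 0.998), AT4G12980 (0.993) and AT3G21670 (0.992), picked from 17621 genes. CYP96A12, a cytochrome P450 gene, had 9.25 ± 0.318 CPM before wounding, 0.494 ± 0.267 after 30 min and 0.371 ± 0.101 after 60 min (SD, n = 3). Its value in replicate 1 of 30 min, 0.209 CPM, stood at the detection floor of 3 counts for that library. Replicate 1 of 60 min stood at 0.2585 CPM. These correlations share libraries and depth and describe a choice of the highest values.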

How the data were processed

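The authors deposited 1 table of raw read counts per gene for 9 leaf libraries, with no normalization. Per the submitters' processing notes, FastQC 0.11.8, Trimmomatic 0.36, HISAT2 2.2.0, featureCounts and the TAIR10 build were used. The annotation release, the use of strand and the handling of multi-mapping reads are not given in the sources used here. Columns were matched to samples by library name, with 0 columns left over. The 10 members, the gene lists and the words searched were chosen with earlier results of these data known. Named genes were all members, other XTH genes called in any comparison, and up to 3 called genes of each list with the smallest p. XTH27, XTH14, XTH12 and XTH13 were named after their values were seen, as were AT4G14120 and PYK10.

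filterByExpr kept 17622 of 27206 genes. edgeR 4.0.16 in R 4.3.3 (TMM factors, glmQLFit, glmQLFTest) was fitted to all 9 libraries with the group as the only term, and p-values were two-sided and Benjamini-Hochberg adjusted over all tested genes at 0.05. CPM are relative to TMM-scaled totals, and log2 CPM used a prior count of 2. The SE is the log2 change divided by the square root of F, a rough value. The detection floor of 3 counts equals 0.114 to 0.209 CPM and covers counting error only. DESeq2 1.42.0 and the other settings of the closing section were alternatives. Gene models, promoters and coding sequences came from TAIR10.1 with RefSeq annotation (26719 of 27206 genes found), whose nuclear chromosomes are those of TAIR10. Exon numbers given with gene positions count blocks of exon merged over all annotated transcripts of a gene. The protein word planned for the search was read through the coding bases, as no protein table was used. Replicates within a group differed by 6.35 to 37.3 times counting noise (chi-square per degree of freedom), so none was merged.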

Additional observations from a re-analysis of the deposited data

How the results depend on the processing

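Across the 10 members, 3 comparisons and 15 alternatives, 412 of 450 values kept their direction and their side of the threshold, 16 lost a call, 15 gained one and 7 turned sign. Leaving out single libraries gave 3474 to 5407 of all genes called at 30 min and 4063 to 6057 at 60 min. The main fit called 4930 and 5704. In those fits 7 to 8 members were called at 30 min and 6 to 9 at 60 min. Between 30 and 60 min it was 0 to 3 members, where the main count was 1. That last count was 0 without replicate 1 of 60 min, 2 without replicate 2 or 3 of 30 min and 3 without replicate 3 of 60 min, and it was 2 with library size alone, 3 with DESeq2 and 0 with only the 2 groups compared. Over all genes the count between 30 and 60 min was 356, but 702 with DESeq2, 223 with the replicate block, and 161 to 480 when single libraries were left out (161 without replicate 1 of 60 min and 162 without replicate 1 of 30 min). The values that turned sign were not called: with single libraries left out, XTH30 at 30 min ran from -0.43 to 0.0523, and from 30 to 60 min XTH33 ran from -0.0918 to 0.22, XTH15 from -0.55 to 0.24 and XTH24 from -0.75 to 0.0081. With library size alone the median of all genes moved to 0.12 at 30 min, 0.28 at 60 min and 0.13 between them, and the share of calls that were higher was 61.3%, 70.9% and 50.8%, against 51.9%, 52.9% and 35.7% with TMM. Replicate numbers gave no sign of pairing the samples: deviations of same-numbered samples correlated at -0.37 to 0.16 over 9 pairs, and of differently numbered ones at -0.30 to 0.34 over 18. With deviations taken within groups of 3, this check cannot exclude pairing. With the replicate block 7, 7 and 1 members were called at 30 min, at 60 min and between them. Over all genes the block gave 4006, 4728 and 223 calls, against 4930, 5704 and 356 in the main fit. The 60 min change of XTH23 had an edgeR adjusted p of 0.0591 with the block. The cause of these differences was not tested.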
